A study of Mus musculus with 6 samples.

Results

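The genes described here build the proton pump of the lysosome, its ion channels and exchangers, the complex that anchors growth signalling to its surface, and its most abundant membrane proteins. The rule that picks them uses symbols and no measured value, but it was written with earlier results of these data known. It takes rows whose symbol begins with Atp6, Mcoln or Lamtor, and a fixed set of single symbols (the two-pore channels, the CLC exchangers Clcn3 to Clcn7 with Ostm1, the Rag GTPases, Lamp1, Lamp2, Gpnmb, Laptm4a, Laptm5 and Tmem55b). This gave 42 genes of 13960 rows, of which 40 were tested and 2, Mcoln1 and Gpnmb, are given apart because their deposited values contradict each other. RNA was measured by sequencing in RiboTag precipitates from the T8 contusion site of mouse spinal cord, in 3 libraries from day 3 and 3 from day 7. All 6 come from one genotype, LysMCre:Rplfl/fl > CD45.1 chimera, in the strain CD45.1. RiboTag precipitation pulls down ribosomes by a tagged Rpl22 protein; here the tag depends on LysM-Cre, which is active in macrophages, monocytes and neutrophils alike and not in macrophages alone. Which cells the CD45.1 host kept, the animals' age and whether animals were pooled are not given in the sources used here. No uninjured cord and no unprecipitated RNA was analysed, so each comparison sets 7 days against 3 days. The p-values measure the spread between libraries, which may be technical, since the labels do not tie a library to an animal. In such precipitates, fewer cells of a type and less RNA per cell cannot be told apart.

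The vacuolar H+-ATPase (V-ATPase) acidifies lysosomes and endosomes. Its soluble V1 sector hydrolyses ATP and turns a rotor, and its membrane sector V0 carries protons inward; CLC exchangers let chloride in to balance the charge, and mucolipin and two-pore channels release calcium and sodium. On the outer face, the Ragulator complex (Lamtor proteins) holds the Rag GTPases, which bring the growth kinase complex mTORC1 to the lysosome when amino acids are plentiful. Macrophages that take up cell debris and myelin break it down in this compartment. The transcription factors TFEB, TFE3 and MITF are known to drive many of these genes through the CLEAR element, which contains the E-box CACGTG.

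Most of the genes were higher at 7 days. Values are FPKM (fragments scaled to transcript length and library size) as deposited. Changes are fitted differences of log2(FPKM + 1), 7 days minus 3 days, with their standard error, and a gene was called where the limma p, adjusted over all 13042 tested genes, was at most 0.05. Of the 40 tested genes, 25 were called higher, 2 were called lower and 13 were not called. Over all tested genes, 18.8% were called higher, 20.3% were called lower and 39.1% were called in either direction. The median log2 change was 0.60 over the 40 genes and -0.04 over all tested genes. All 3 libraries at 7 days lay above all 3 at 3 days for 27 of the 40 (26.8% of all tested genes) and below them for 5 (28.6% of all tested genes). The FPKM of the 40 genes summed to between 3772 and 4262 in the 3-day libraries and to between 6568 and 7348 in the 7-day libraries. Summed over all tested genes it was 332599 to 412886 at 3 days and 384166 to 405636 at 7 days. With quantile normalization 19 of the 40 were higher and 4 lower, and their median log2 change was 0.37. Over all 13042 tested genes that setting gave 2317 higher and 1809 lower, with a median log2 change of 0.05.

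**Figure D1:**
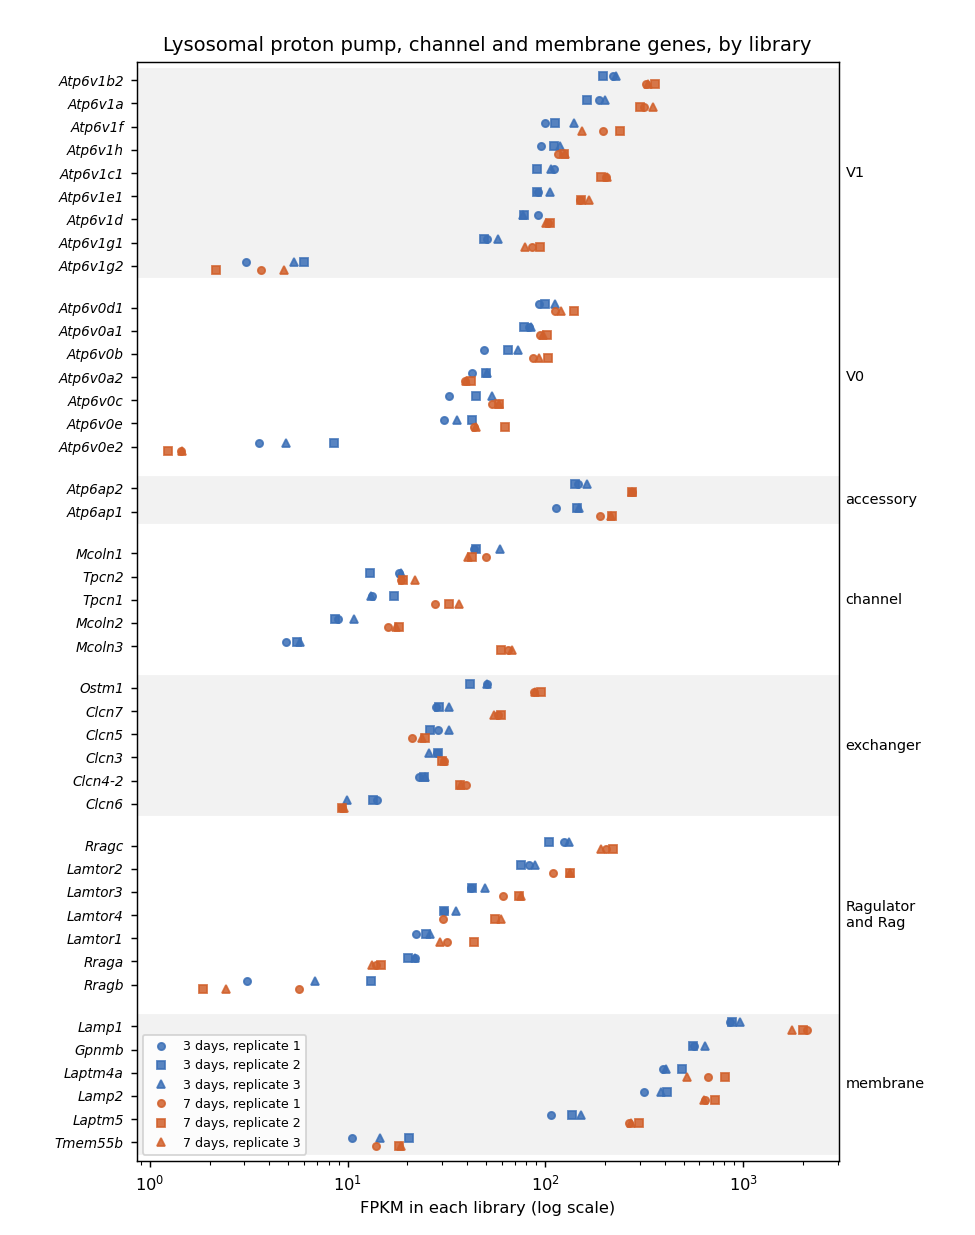
FPKM of all 42 genes in each library on a log axis, ordered by role and by the 3-day mean; blue marks are 3 days, orange marks 7 days, and the marker shape gives the replicate. The orange marks lie to the right of the blue for most genes, by the widest gap for Mcoln3; Gpnmb has no 7-day marks because it is listed at 0 there.

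The macrophage label was checked on 11 fixed markers, 7 of which were tested. Of these, 4 rose and 2 fell, and their median log2 change was 0.46. Here a marker that rose or fell is one that was called. Over all tested genes, 18.8% were called higher and 20.3% lower. Their FPKM summed to 1415 to 1710 at 3 days and to 1814 to 1939 at 7 days. Lyz2, the gene whose promoter drives the Cre, measured between 2900 and 9435 FPKM in 5 libraries and is listed at 0 in 7-day replicate 3, so it was not tested. The tagged gene Rpl22 measured 47.2 ± 6.13 FPKM at 3 days and 45.3 ± 4.94 at 7 days (SD, n = 3). Markers of other cells were measured too. Neuron markers summed to 152, 362 and 165 FPKM in 3-day replicates 1, 2 and 3 and to 48.5 to 61.2 at 7 days, and 10 of 10 fell; none of the 10 was at 0 in any library. Oligodendrocyte markers summed to 313 to 630.0 FPKM at 3 days and 133 to 159 at 7 days (9 of 9 fell). Microglia markers rose in 5 of 6, from sums of 736 to 929.7 to sums of 2170.4 to 2406. Monocyte markers fell in 4 of 6, from sums of 458 to 525 to 172 to 226. Of 6 neutrophil markers 1 rose and 1 fell, with sums of 48.3 to 53.2 FPKM at 3 days and 31.2 to 49.0 at 7 days. Erythroid markers fell in 4 of 5, from sums of 164 to 213 to 15.9 to 22.4, endothelial markers in 6 of 7, from 39.5 to 67.0 to 16.4 to 17.6, and astrocyte markers in 5 of 7, from 205 to 585 to 106 to 132. Fibroblast, Schwann cell and osteoclast markers fell in 3 of 5 each, with 1 of the 5 osteoclast markers higher. Dendritic cell markers rose in 1 of 3, with sums of 11.8 to 14.5 and 32.8 to 39.7 FPKM. The 1 that rose, Itgax, went from a mean of 12.1 to 36.9 FPKM. Zbtb46 went from 0.693 to 0.331 FPKM and Ccr7 from 0.305 to 0 FPKM, neither called. Among T or NK cell markers 1 of 2 rose, as did 1 of 1 B cell marker, each list summing to at most 3.48 FPKM in any library. The part of these other cells in the changes below was not tested. Emr1, Csf3r, F13a1, Flt3 and Col3a1 were set aside and are in no count or sum here, as their library values miss the deposited means. Mean library FPKM at 3 and 7 days was 221 and 431 for Emr1 (macrophage), 11.4 and 25.4 for Csf3r (neutrophil), and 410 and 384 for F13a1 (monocyte). It was 2.41 and 0.835 for Flt3 (dendritic cell) and 62.9 and 38.0 for Col3a1 (fibroblast). The neuron, oligodendrocyte, astrocyte, endothelial, fibroblast and Schwann cell sums all peaked in 3-day replicate 2. Without that library, 21 of the 40 genes were called higher and 3 lower. Over all 13042 tested genes, 2085 were then called higher and 2307 lower.

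Promoter sequence is shown because TFEB and its relatives bind the E-box, and the genes differ in whether they carry it. Windows of 300 bases, from 250 before to 50 after the annotated start (RefSeq, GRCm38.p6, the assembly also called mm10), matched 35 of the 42 genes. Clcn4-2 was matched as Clcn4 and Tmem55b as Pip4p1. CACGTG, a palindrome and so the same on both strands, stood in the window of 15 of the 35 genes, beside 8.09% of the 27025 symbols in the table. The longer palindrome TCACGTGA, which contains CACGTG, stood in 7 of the 35 beside 1.12% of symbols. These symbols include genes that were not tested here. Among tested genes with a window, 1048 had CACGTG and 8023 did not, and 190 had TCACGTGA and 8881 did not. The 15 are Atp6v1a, Atp6v0b, Atp6v0d1, Atp6v0e, Mcoln1, Mcoln2, Clcn4-2, Clcn6, Clcn7, Lamtor1, Lamtor4, Rragb, Rragc, Lamp1 and Tmem55b. These matches are letters in a window and not shown to be bound.

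Genes with and without the E-box were both called higher. A role of the E-box in these changes was not tested. Of the 14 tested genes with CACGTG, 8 were called higher, and of the 19 tested genes without it, 12 were. Over all tested genes with a window, 21.5% of the 1048 with CACGTG and 19.9% of the 8023 without it were called higher. Of the 6 tested genes with TCACGTGA, 2 were called higher, and of the 27 tested genes without it, 18 were. Over all tested genes with a window, 22.6% of the 190 with TCACGTGA and 19.99% of the 8881 without it were called higher. The 140 bases just before the start are printed 5′ to 3′ on the gene's own strand, with each CACGTG in capitals. Lamp1, with 4 copies, is the gene with the most; Clcn7, Atp6v1a, Rragc and Mcoln2 have 1 copy each in this stretch, and Mcoln3 and Lamp2, which rose as well, have none.
Lamp1: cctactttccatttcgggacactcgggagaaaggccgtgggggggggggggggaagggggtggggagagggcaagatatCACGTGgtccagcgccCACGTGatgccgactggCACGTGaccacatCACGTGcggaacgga
Clcn7: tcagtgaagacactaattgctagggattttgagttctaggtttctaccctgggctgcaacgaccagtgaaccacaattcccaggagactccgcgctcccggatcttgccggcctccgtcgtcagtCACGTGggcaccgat
Atp6v1a: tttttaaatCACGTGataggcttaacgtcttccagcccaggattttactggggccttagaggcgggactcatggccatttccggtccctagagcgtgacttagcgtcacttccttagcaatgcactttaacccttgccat
Rragc: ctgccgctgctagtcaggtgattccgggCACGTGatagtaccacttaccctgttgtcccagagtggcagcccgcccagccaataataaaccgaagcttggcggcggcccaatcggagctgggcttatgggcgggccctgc
Mcoln2: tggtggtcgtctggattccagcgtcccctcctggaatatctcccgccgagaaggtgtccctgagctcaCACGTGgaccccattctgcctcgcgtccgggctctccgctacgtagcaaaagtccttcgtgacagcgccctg
Mcoln3: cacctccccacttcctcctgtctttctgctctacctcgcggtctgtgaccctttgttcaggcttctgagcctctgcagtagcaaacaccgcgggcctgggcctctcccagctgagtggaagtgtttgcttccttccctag
Lamp2: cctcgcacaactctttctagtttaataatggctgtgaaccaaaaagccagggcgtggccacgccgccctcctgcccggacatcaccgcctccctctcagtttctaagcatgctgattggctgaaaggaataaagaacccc
These stretches lie at chr8:13159021-13159160 (Lamp1, plus strand), chr17:25133251-25133390 (Clcn7, plus), chr16:44139260-44139399 (Atp6v1a, minus), chr4:123917293-123917432 (Rragc, plus), chr3:146150034-146150173 (Mcoln2, plus), chr3:146121651-146121790 (Mcoln3, plus) and chrX:38456461-38456600 (Lamp2, minus). In Atp6v1a the E-box begins 131 bases before the start. The 4 copies in Lamp1 begin 61, 45, 28 and 15 bases before it. The RefSeq starts of Mcoln3, Mcoln2, Atp6v1a, Rragc and Lamp2 lie inside the loci that the authors' table gives for them, so other starts are possible. For Mcoln3 the window runs from 146121541 to 146121840. Its deposited locus begins at 146117442 and its gene in the GENCODE M21 annotation at 146117450. The bases around that outer start were not searched, so the lack of CACGTG holds for the inner start only. Those of Lamp1 and Clcn7 lie just before their loci. The window of Atp6v0e, at chromosome 17, 26676146 to 26676445, lies before its deposited locus of 26695270 to 26703904.

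In the V1 sector, 7 of 9 subunit genes were called higher and none of the 9 lower, with a median log2 change of 0.69. Over all tested genes the shares were 18.8% and 20.3%. Of the 9, the number higher was 5 with quantile normalization and without 3-day replicate 2 or 7-day replicate 1 or 2. It was 6 without any other single library, with centring on the median gene, with a constant prior variance and by the authors' deposited q-values. Atp6v1a, the catalytic subunit that hydrolyses ATP, measured 186, 163 and 200.2 FPKM at 3 days and 314, 299.7 and 351 FPKM at 7 days (mm10 chromosome 16, 44085369 to 44139428). Every 7-day library was above every 3-day library, a 1.76-fold rise in the mean (log2 0.81 ± 0.12, limma adjusted p = 0.0028). Its partner in the catalytic ring, Atp6v1b2, measured 219, 195 and 228 FPKM and then 321, 357 and 329 FPKM (log2 0.65 ± 0.11, adjusted p = 0.00446). The groups did not overlap, and the ratio of Atp6v1a to Atp6v1b2 was 0.835 to 0.880 at 3 days and 0.839 to 1.07 at 7 days, so the 2 ring subunits kept similar FPKM levels.

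Atp6v1c1, which links V1 to V0 and is released when the pump comes apart, had the largest log2 change in the sector. It measured 110.3, 90.8 and 107 FPKM at 3 days and 202, 190.2 and 205 FPKM at 7 days, a 1.94-fold rise (log2 0.95 ± 0.11, adjusted p = 0.00105; chromosome 15, 38661879 to 38693878). The stalk subunits followed. Atp6v1e1 measured 91.9, 90.6 and 105 FPKM and then 149, 151 and 166 FPKM (log2 0.69 ± 0.10, adjusted p = 0.00267). Atp6v1g1 measured 50.9, 49.0 and 57.6 FPKM and then 85.4, 93.4 and 78.6 FPKM (log2 0.70 ± 0.11, adjusted p = 0.00306). Both were higher in all 3 libraries at 7 days.

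The rotor subunits rose with a less stable call. Atp6v1f measured 99.96, 112 and 139.7 FPKM at 3 days and 196, 238 and 153 FPKM at 7 days (log2 0.73 ± 0.19, adjusted p = 0.0208). Its 7-day replicate 3 was near the highest 3-day library. Atp6v1d measured 92.1, 77.6 and 76.8 FPKM and then 103, 106 and 100.1 FPKM (log2 0.32 ± 0.10, adjusted p = 0.0407). Atp6v1f lost its call when replicate 1 or 2 of either time was left out (adjusted p from 0.0577 to 0.0676) and with quantile normalization (0.0559). Atp6v1d lost it without any single library but 3-day replicate 1 (0.0854 to 0.119), with quantile normalization (0.469) with centring on the median gene (0.0661), with a constant prior variance (0.0732) and by the authors' deposited q-value (0.287).

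Atp6v1h, the regulatory subunit on the stator, was not called. It measured 94.6, 111 and 118 FPKM at 3 days and 116, 124 and 126 FPKM at 7 days, and the groups overlapped (log2 0.19 ± 0.11, adjusted p = 0.21). Set against it, the ratio of Atp6v1c1 to Atp6v1h was 0.964 ± 0.180 at 3 days and 1.63 ± 0.108 at 7 days (SD, n = 3), without overlap. As Atp6v1c1 had the largest log2 change of the sector, this ratio restates the changes already given and is no further result. Atp6v1g2, the G subunit known mainly from neurons, was the least abundant of the sector. It measured 3.06, 6.03 and 5.34 FPKM and then 3.63, 2.16 and 4.74 FPKM (adjusted p = 0.328), and was highest in 3-day replicate 2, the library with the highest neuron marker sum.

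In the V0 sector, 2 of 7 subunit genes were called higher, beside 18.8% of all tested genes. In the sector 1 was called lower and 4 were not called, with a median log2 change of 0.28. With quantile normalization 0 were higher and 2 lower, and 0 were higher without 7-day replicate 2 or 3. The number higher was 1 without 3-day replicate 1 or 2 or 7-day replicate 1, with centring on the median gene, with a constant prior variance, and among genes at 5 FPKM or more and in the authors' filtered table (6 subunits tested in each of these filters). A difference between the sectors was not tested. Atp6v0b, the c″ subunit of the proton-carrying ring, measured 48.7, 64.6 and 72.9 FPKM at 3 days and 86.5, 102 and 93.0 FPKM at 7 days (log2 0.61 ± 0.16, adjusted p = 0.0203). The groups did not overlap. The call ended without 7-day replicate 2 (adjusted p = 0.0742) or replicate 3 (0.0595) and with quantile normalization (0.0906). Atp6v0c, the c subunit that makes up most of the ring, measured 32.6, 44.4 and 53.9 FPKM and then 53.4, 58.4 and 58.2 FPKM. It was not called (adjusted p = 0.106) and was called higher by the authors' deposited q-value (0.0413) and without 3-day replicate 3 (0.0381), the 3-day library that overlaps the later ones.

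Atp6v0d1, which couples the rotor to the ring, measured 93.2, 99.8 and 112 FPKM at 3 days and 112, 140.1 and 119 FPKM at 7 days (adjusted p = 0.105). Atp6v0e measured 30.8, 42.4 and 35.8 FPKM and then 43.7, 62.3 and 44.3 FPKM (log2 0.45 ± 0.17, adjusted p = 0.0762). Its 7-day libraries lay above the others by a narrow margin, without a call. It was called higher with a replicate block (adjusted p = 0.0175) and by the authors' deposited q-value (0.00433). Its paralog Atp6v0e2, a form known from brain, was the V0 gene called lower. It measured 3.58, 8.49 and 4.85 FPKM at 3 days and 1.43, 1.24 and 1.44 FPKM at 7 days (log2 -1.42 ± 0.27, adjusted p = 0.00644). It too was highest in 3-day replicate 2, and its share of the summed FPKM of both e subunits went from 13.01% ± 3.28 to 2.76% ± 0.702.

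The a subunit forms the path by which protons cross the membrane, and its paralogs send the pump to different compartments. Atp6v0a1 measured 82.5, 78.3 and 84.1 FPKM at 3 days and 94.4, 102 and 97.4 FPKM at 7 days (log2 0.26 ± 0.09, adjusted p = 0.0479). That call was lost without any single library (0.0606 to 0.146), with quantile normalization (0.672), with centring on the median gene (0.0664) and in other alternatives, 13 of 16 in all. Atp6v0a2, the Golgi and endosome form, measured 42.5, 50.3 and 50.5 FPKM and then 39.3, 42.1 and 39.7 FPKM (adjusted p = 0.105). Each of its 7-day values was below each 3-day value. It was called lower without 3-day replicate 1 (adjusted p = 0.0337) and with quantile normalization (0.017). Tcirg1, which encodes the a3 form of macrophage lysosomes and osteoclasts, is outside the naming rule and stands on the list of pump partners. It rose from 37.7 ± 4.07 to 48.8 ± 1.90 FPKM (log2 0.37 ± 0.10, adjusted p = 0.0281), a call that ended without any single library but 3-day replicate 3 (0.0592 to 0.0934) and with quantile normalization (0.246), a constant prior variance (0.0523) and the authors' deposited q-value (0.0643). Of the summed FPKM of the 3 paralogs, Atp6v0a2 held 28.6% ± 1.98 at 3 days and 21.6% ± 0.159 at 7 days, and Tcirg1 held 22.5% ± 1.22 and 26.1% ± 0.0252.

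Both accessory proteins of the pump, which help assemble it and steer it to its membranes, rose. Atp6ap2, also known as the prorenin receptor, measured 146, 141 and 162 FPKM at 3 days and 273, 275 and 275 FPKM at 7 days, with no overlap (log2 0.87 ± 0.10, adjusted p = 0.00105; chromosome X, 12587787 to 12617134). Atp6ap1 measured 113, 144 and 148 FPKM and then 189, 218 and 214 FPKM (log2 0.62 ± 0.13, adjusted p = 0.0107; chromosome X, 74297007 to 74304785). Both kept their calls under all 16 alternatives tried.

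**Figure D2:**
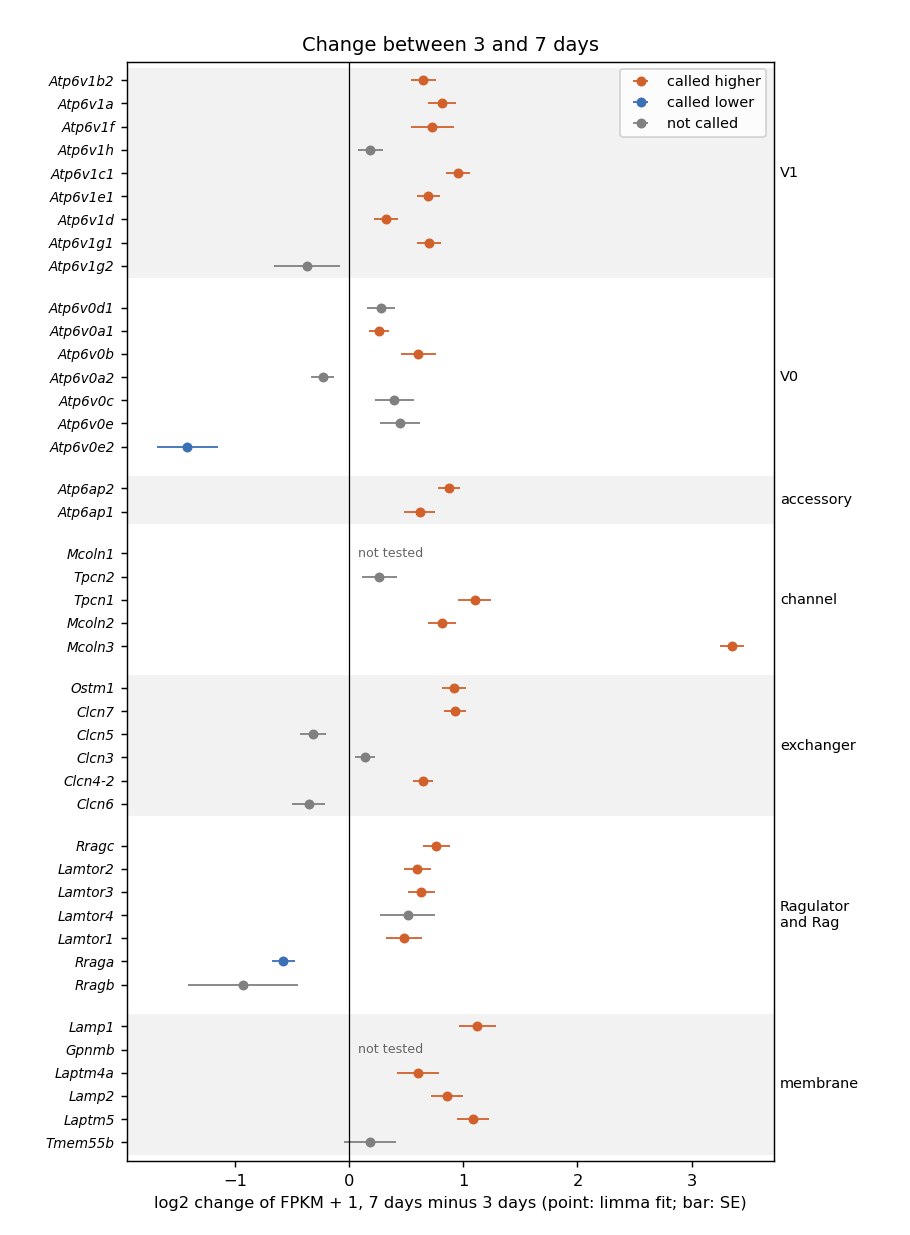
Fitted log2 change of FPKM + 1 between 3 and 7 days for the 40 tested genes, by role; points are limma estimates, bars their standard errors, and colour gives the call. Most points lie between 0 and 1.12, with Mcoln3 apart at 3.35 and with Atp6v0e2 and Rraga called lower.

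Among the CLC exchangers, Clcn7 and its partner rose together and Clcn4-2 also rose, while Clcn3, Clcn5 and Clcn6 did not pass the test. ClC-7 is the main chloride-proton exchanger of lysosomes, and Ostm1 is the subunit it needs for stability. Clcn7 measured 27.8, 28.9 and 32.5 FPKM at 3 days and 57.4, 59.9 and 54.6 FPKM at 7 days, a 1.93-fold rise (log2 0.93 ± 0.10, adjusted p = 0.00082; chromosome 17, 25133405 to 25162137). Ostm1 measured 50.6, 41.5 and 50.6 FPKM and then 87.5, 95.3 and 88.4 FPKM (log2 0.92 ± 0.11, adjusted p = 0.00119; chromosome 10, 42678896 to 42702576). For both, the times did not overlap. The ratio of Ostm1 to Clcn7 in FPKM was 1.61 ± 0.196 at 3 days and 1.58 ± 0.0474 at 7 days (SD, n = 3), and its values at the 2 times overlapped.

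Clcn4-2, the mouse gene of the endosomal exchanger ClC-4, was the third called higher in this group. It measured 22.9, 24.2 and 24.6 FPKM at 3 days and 39.5, 37.1 and 37.5 FPKM at 7 days (log2 0.65 ± 0.09, adjusted p = 0.00186). Clcn3, an exchanger of endosomes, measured 28.2, 28.6 and 25.8 FPKM and then 30.7, 30.1 and 30.7 FPKM (adjusted p = 0.234), above the earlier values by a small margin. Clcn5, known from endosomes of the kidney, measured 28.7, 26.2 and 32.3 FPKM and then 21.1, 24.5 and 23.6 FPKM (log2 -0.32 ± 0.11, adjusted p = 0.0594). Clcn6, known from late endosomes of neurons, measured 13.99, 13.5 and 9.89 FPKM and then 9.32, 9.39 and 9.53 FPKM (log2 -0.36 ± 0.15, adjusted p = 0.0918). These 2 lay lower in all 3 libraries at 7 days without passing the test. Clcn5 was called lower without 3-day replicate 2 (adjusted p = 0.0409) and with quantile normalization (0.0172), and Clcn6 without 3-day replicate 3 (0.0277).

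The make-up of the family in FPKM shifted accordingly. Clcn7 held 24.2% ± 1.59 of the summed FPKM of the 5 exchangers at 3 days and 36.2% ± 1.10 at 7 days, while Clcn5 held 23.7% ± 2.13 and 14.6% ± 1.05. At 3 days Clcn3, Clcn4-2, Clcn5 and Clcn7 had mean levels between 23.9 and 29.7 FPKM. At 7 days Clcn7 was first, at 57.3 ± 2.63 FPKM, followed by Clcn4-2 at 38.0 ± 1.28 and Clcn3 at 30.5 ± 0.330.

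**Figure D3:**
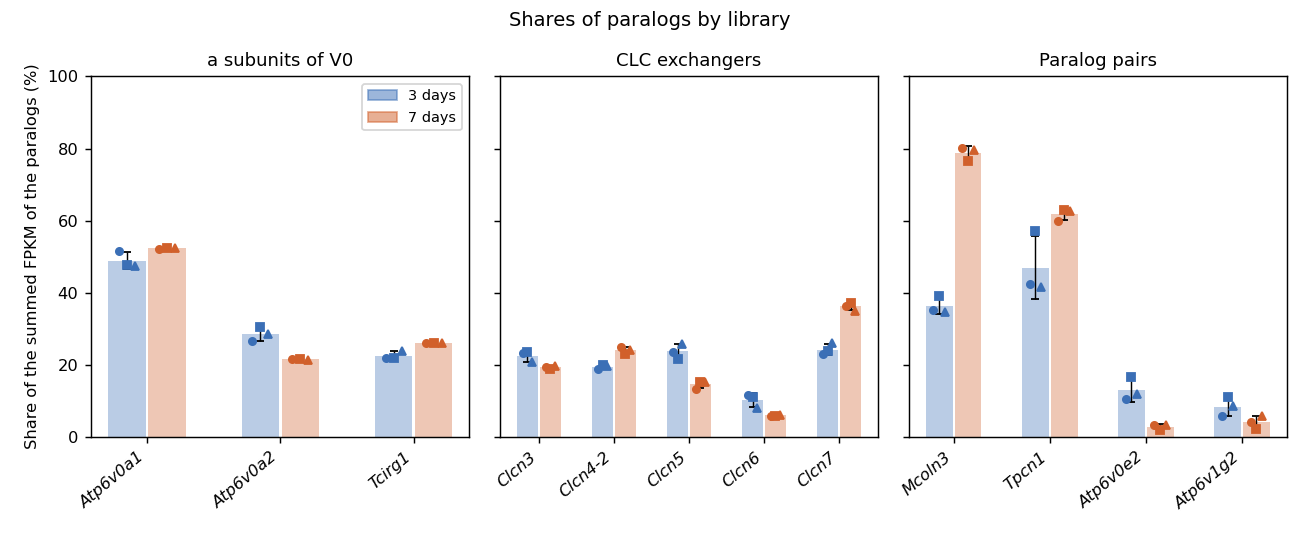
Share of the summed FPKM of paralogs held by each gene, per library (marks), with the mean (bars) and SD (whiskers, n = 3) at 3 days (blue) and 7 days (orange). Mcoln3 went from 36.4% to 78.7% of Mcoln2 and Mcoln3 together and Clcn7 from 24.2% to 36.2% of the CLC exchangers.

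Mcoln3 had the largest change of all 40 genes. TRPML3, the protein it encodes, is a cation channel of early and late endocytic compartments. It measured 4.86, 5.53 and 5.71 FPKM at 3 days and 64.7, 59.7 and 67.9 FPKM at 7 days, an 11.9-fold rise (log2 3.35 ± 0.11, adjusted p = 2.72e-05; chromosome 3, 146117442 to 146141810). The lowest 7-day library was above the highest 3-day library by far more than the spread within either time. Mcoln2, the neighbouring gene for TRPML2, an inducible channel of recycling endosomes in immune cells, measured 8.93, 8.63 and 10.7 FPKM and then 16.0, 18.3 and 17.6 FPKM (log2 0.81 ± 0.12, adjusted p = 0.00285; chromosome 3, 146149836 to 146195615). The 2 channels thus changed order: Mcoln3 held 36.4% ± 2.35 of their summed FPKM at 3 days and 78.7% ± 1.91 at 7 days.

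Mcoln1, the gene of TRPML1, the calcium channel of lysosomes that is mutated in mucolipidosis type IV, could not be tested. Its library values were 43.5, 44.5 and 59.2 FPKM at 3 days and 50.1, 42.7 and 40.8 FPKM at 7 days, and they overlap between the times. The authors' deposited table gives it means of 1.96 and 0.275 FPKM and a q-value of 0.0352 on the same row. Its locus there runs to chromosome 8, 3543293, across the neighbouring gene Pnpla6. No direction is drawn for it.

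The two-pore channels release sodium and calcium in response to lipid and nucleotide signals. Tpcn1 measured 13.3, 17.1 and 13.2 FPKM at 3 days and 27.7, 32.3 and 36.7 FPKM at 7 days, a 2.22-fold rise without overlap (log2 1.10 ± 0.15, adjusted p = 0.00185; chromosome 5, 120541849 to 120588625). Tpcn2, the form most closely tied to lysosomes, measured 18.1, 12.9 and 18.6 FPKM and then 18.6, 19.1 and 21.9 FPKM, with an overlap (log2 0.27 ± 0.16, adjusted p = 0.205). Tpcn1 held 47.0% ± 8.74 of their summed FPKM at 3 days and 61.8% ± 1.70 at 7 days. In 3-day replicate 2, with 57.0%, it was already the more abundant of the pair.

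On the signalling surface, 4 of 7 genes of Ragulator and the Rag GTPases were called higher and 1 was called lower. For all tested genes the shares were 18.8% and 20.3%. Lamtor1 is the lipid-anchored subunit that ties Ragulator to the membrane, and Lamtor2 and Lamtor3 form one of the roadblock pairs it wraps around. Lamtor2 measured 82.7, 75.1 and 88.1 FPKM at 3 days and 109, 133 and 133 FPKM at 7 days (log2 0.60 ± 0.12, adjusted p = 0.00765). Lamtor3 measured 42.1, 42.3 and 49.5 FPKM and then 60.8, 73.5 and 75.3 FPKM (log2 0.63 ± 0.12, adjusted p = 0.00667). Both rose in every 7-day library over every 3-day one. Lamtor1 measured 22.2, 24.9 and 26.0 FPKM and then 31.6, 43.5 and 29.3 FPKM (log2 0.48 ± 0.16, adjusted p = 0.0468). It lost its call without any single library but 7-day replicate 3 (0.0762 to 0.113) and with quantile normalization (0.138) and a constant prior variance (0.0671). Lamtor4 measured 30.8, 30.7 and 35.2 FPKM and then 30.2, 55.5 and 59.3 FPKM, with 7-day replicate 1 at the 3-day level. It was not called (adjusted p = 0.125), and was called higher without that library (0.00695) and by the authors' deposited q-value (0.0187).

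The Rag GTPases act as pairs of RagA or RagB with RagC or RagD, and their subunits moved in opposite directions. Rragc measured 124, 104 and 131 FPKM at 3 days and 202, 218 and 190.4 FPKM at 7 days (log2 0.76 ± 0.12, adjusted p = 0.00338; chromosome 4, 123917387 to 123936997). Rraga measured 21.8, 20.2 and 21.9 FPKM and then 13.9, 14.8 and 13.2 FPKM, a fall in all 3 libraries (log2 -0.58 ± 0.10, adjusted p = 0.00454; chromosome 4, 86575675 to 86578049). Rragb, a close paralog of Rraga that is better known from brain, measured 3.11, 13.1 and 6.81 FPKM and then 5.68, 1.85 and 2.43 FPKM. It was not called (adjusted p = 0.159), and was called lower without 3-day replicate 1 (0.0496) and by the authors' deposited q-value (0.0391). Its highest value was again in 3-day replicate 2. Because Rraga and Rragb are alike in sequence, the counting may have split reads between them. The ratio of Rragc to their sum in FPKM was 4.23 ± 0.987 at 3 days and 11.9 ± 1.42 at 7 days. Rragc, Rraga and the accessory protein genes kept their calls under all 16 alternatives.

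In the membrane group, 4 of 5 tested genes were called higher, beside 18.8% of all tested genes. The median log2 change of the group was 0.86. Lamp1, a heavily glycosylated protein that lines the inner face, measured 859, 875 and 961 FPKM at 3 days and 2092, 2018 and 1771 FPKM at 7 days, a 2.18-fold rise (log2 1.12 ± 0.16, adjusted p = 0.00231; chromosome 8, 13159248 to 13175858). Lamp2, which also serves chaperone-mediated autophagy, measured 315, 409.7 and 383 FPKM and then 644, 719 and 637 FPKM (log2 0.86 ± 0.14, adjusted p = 0.00403; chromosome X, 38404581 to 38456463). Neither gene's times overlapped. Lamp1 held 70.9% ± 2.57 of the summed FPKM of both at 3 days and 74.6% ± 1.64 at 7 days. As printed above, the Lamp1 stretch holds 4 E-boxes and that of Lamp2 none.

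Laptm5, a lysosomal protein of blood cells that takes part in receptor turnover, measured 107, 136 and 151 FPKM at 3 days and 265, 297 and 271 FPKM at 7 days (log2 1.09 ± 0.14, adjusted p = 0.00175; chromosome 4, 130913285 to 130936668). Its widely expressed relative Laptm4a measured 394, 491 and 408 FPKM and then 660.0, 805 and 523 FPKM (log2 0.60 ± 0.19, adjusted p = 0.0379). At 7 days it ranged from 523 to 805 FPKM. Laptm4a lost its call when 3-day replicate 1 or 3 was left out, and likewise for 7-day replicate 1 or 2 (adjusted p from 0.0933 to 0.117), and with quantile normalization (0.195). Tmem55b, a protein that ties lysosomes to dynein transport, measured 10.5, 20.3 and 14.5 FPKM and then 13.8, 18.2 and 18.5 FPKM, with full overlap (adjusted p = 0.54).

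Gpnmb, a glycoprotein of phagocytic macrophages and melanosomes, cannot be compared between the times. It measured 566, 558 and 637 FPKM at 3 days and at 7 days every library lists it at 0. The authors' deposited table gives a 7-day mean of 14.6 FPKM on the same row. In the whole table, 14 rows list a 0 in one library beside 100 FPKM or more in another. Whether the 0 is a failed estimate was not tested.

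In all, 21 of the 27 called genes kept their call under every alternative in which they were tested, 19 higher and 2 lower. Besides the 6 that lost it, 7 uncalled genes gained a call under at least 1 alternative: Atp6v0a2, Atp6v0c, Atp6v0e, Clcn5, Clcn6, Lamtor4 and Rragb. The loci given for 9 of the 42 genes overlap another protein-coding gene of the GENCODE M21 annotation: Atp6v1b2, Atp6v1d, Atp6v1g2, Mcoln1, Lamtor1, Lamtor4, Rragc, Lamp1 and Tmem55b. Whether counting used strand is not stated, so reads of the overlapping genes may be part of their values.

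Genes that work with these proteins were read from 4 further lists. Of 12 tested partners and assembly factors of the V-ATPase, 6 were called higher and 1 lower, and the median log2 change was 0.24. Those called higher made up 50%, beside 18.8% of all tested genes. The largest called changes were those of Rogdi, from 2.21 ± 0.512 to 4.05 ± 0.987 FPKM, of Tmem9, from 6.02 ± 1.53 to 9.53 ± 1.18 FPKM, of Oxr1, from 41.3 ± 4.79 to 61.3 ± 3.45 FPKM, and of Ccdc115, an assembly factor, from 19.8 ± 2.98 to 29.6 ± 3.39 FPKM. Rogdi belongs to the complex that reassembles the pump. These calls depended on the libraries: the count of 6 was 3 without 3-day replicates 1 or 3, 2 without 3-day replicate 2 or 7-day replicates 1 or 3, and 1 without 7-day replicate 2. With quantile normalization it was 3.

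Of 24 tested genes of amino acid sensing and mTORC1 at the lysosome, 5 were called higher, 1 was called lower and 18 were not called, with a median log2 change of 0.19. The share called higher was 20.8%, near the 18.8% of all tested genes. Sesn1, a stress-induced brake on mTORC1, measured 14.9, 18.8 and 20.0 FPKM at 3 days and 53.5, 47.2 and 49.5 FPKM at 7 days (log2 1.44 ± 0.13, adjusted p = 5.01e-04). Fnip1, a partner of the RagC activator folliculin, rose from 34.1 ± 3.91 to 72.2 ± 2.55 FPKM (log2 1.07 ± 0.11, adjusted p = 6.89e-04). Mios, of the GATOR2 complex, rose from 7.60 ± 0.230 to 10.4 ± 0.594 FPKM, and Sh3bp4, a binder of the Rag GTPases, fell from 3.48 ± 0.449 to 1.47 ± 0.737 FPKM. Sesn1 and Fnip1 kept their calls under all 16 alternatives, Mios lost it under 4 and Sh3bp4 under 5. The count of 5 was 3 without 3-day replicate 2 and 2 without 3-day replicate 3 or any 7-day library. It was also 3 when centred on the median gene, with a constant prior variance and with a replicate block.

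Of 33 tested other proteins of the lysosomal membrane, 11 were called higher, 1 was called lower and 21 were not called. Their median log2 change was 0.23, and the 33.3% called higher stand beside 18.8% of all tested genes. The endocytic receptor Scarb2 rose from 129.5 ± 10.1 to 366 ± 22.2 FPKM (log2 1.49 ± 0.11). Tmem106b, a lysosomal protein studied in neurodegeneration, rose from 18.9 ± 2.92 to 40.1 ± 1.98 FPKM, and the cholesterol exporter Npc1 from 106 ± 9.62 to 179 ± 4.22 FPKM. Abca2, a lipid transporter abundant in oligodendrocytes, fell from 58.2 ± 12.5 to 18.6 ± 1.39 FPKM. These 4 kept their calls under all 16 alternatives. The count of 11 was 6 without 7-day replicate 2, and 8 to 10 without any other single library. Oligodendrocyte markers fell in the same libraries (9 of 9 tested). In 3-day replicates 1, 2 and 3 their sums were 313, 630.0 and 398 FPKM, and Abca2 measured 72.6, 52.0 and 50.1 FPKM. The part of oligodendrocyte RNA in the fall of Abca2 was not tested.

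All 4 genes of the TFEB family lay higher in every 7-day library than in every 3-day library, and 2 were called higher. Over all tested genes, 26.8% lay so and 18.8% were called higher. Tfeb measured 9.94, 8.99 and 8.05 FPKM at 3 days and 11.8, 13.6 and 16.0 FPKM at 7 days (log2 0.56 ± 0.15, adjusted p = 0.021). Mitf rose from 18.7 ± 3.31 to 25.7 ± 0.982 FPKM (log2 0.45 ± 0.14, adjusted p = 0.0362). Tfe3 measured 19.6 ± 1.77 and 23.1 ± 1.22 FPKM (adjusted p = 0.116) and Tfec 5.20 ± 0.423 and 6.74 ± 0.126 FPKM (adjusted p = 0.0778). Neither Tfeb nor Mitf was called without 3-day replicate 2 or 3 or without 7-day replicate 2 or 3 (adjusted p from 0.0503 to 0.102), and Mitf was not called without 7-day replicate 1 (0.0964) or with quantile normalization (0.11), centring on the median gene (0.0548) or a constant prior variance (0.0529).

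**Figure D4:**
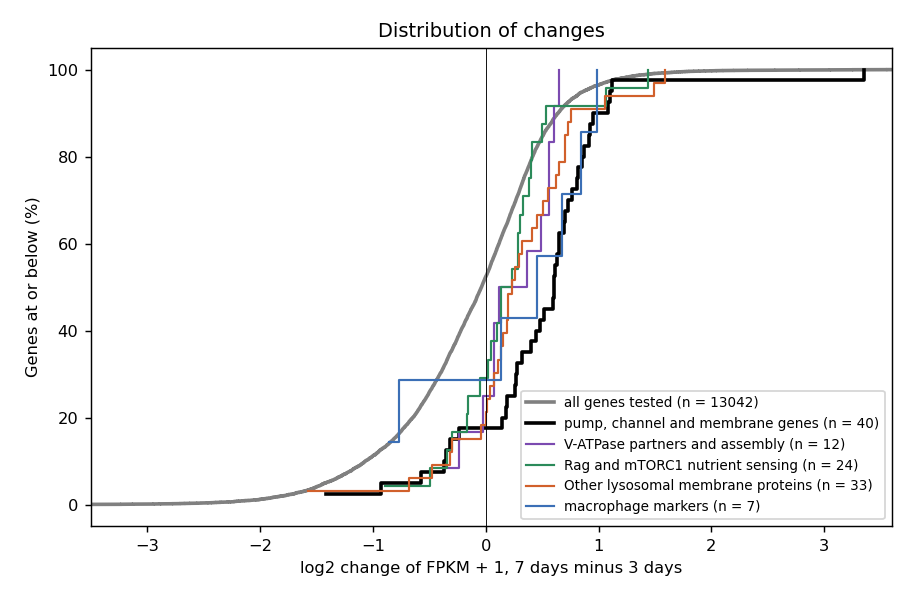
Cumulative share of genes at or below each log2 change for all 13042 tested genes (grey), the 40 pump, channel and membrane genes (black), 3 of the further lists and the macrophage markers. The median is 0.60 for the black curve, -0.04 for the grey curve and between 0.19 and 0.46 for the other 4.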

How the data were processed

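RNA from RiboTag precipitates was sequenced in 6 libraries, and 2 gene tables, before and after a filter, were deposited. Per the file headers, each table holds FPKM per library, the authors' mean FPKM per time, and the authors' log2 fold change, test score, p-value and q-value. The submitters' processing notes name TopHat2 (2.0.12), Cufflinks (2.2), Cuffdiff (2.2.1) and mm10, in no order. Library scaling, strand and filter are not given in the sources used here. The number of fragments behind an FPKM value is unknown, so counting intervals are not given.

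Of 13960 rows, 918 were set aside, some for several reasons. In 45 the status was not OK, in 838 the mean of the libraries differed from the deposited mean by more than 1%, in 14 a 0 stood beside 100 FPKM or more, and 32 repeated a symbol. The 13042 others were tested as log2(FPKM + 1) with limma 3.58.1 (R 4.3.3), two-sided, with a mean-dependent prior variance, Benjamini-Hochberg adjustment over all 13042 and no filter on low values. With 3 libraries a time, an exact permutation test reaches p = 0.1 at best, so calls rest on variance shared across genes. The fit was tested on simulated data.

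All 42 genes are named, by library where a mean reached 10 FPKM or the gene or its paralog was called or set aside. Of each further list, up to 4 called genes with the largest changes and a mean of at least 1 FPKM are named, and Tcirg1, Tfeb, Tfe3, Mitf, Lyz2 and Rpl22 always; Tfec was added after its value was seen, and Cd68 was not analysed here. Members and lists were chosen with earlier results of these data known. Loci are the deposited ones; whether their starts count from 0 or 1 is not stated. Python 3.11.15, pandas 2.3.3 and matplotlib 3.10.9 were used for the rest.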

Additional observations from a re-analysis of the deposited data

How the results depend on the processing

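The 16 alternatives covered scaling, pseudocount, filters, the rows tested, the prior variance, the authors' own q-values, a replicate block and each library left out. The members called higher numbered 19 to 26 and those called lower 1 to 4. Quantile normalization gave 4 members lower, 5 pump subunits higher and 2 lower, and turned Atp6v1h (log2 -0.0228) and Clcn3 (log2 -0.0296) below 0, neither called. With genes at 5 FPKM or more there were 1204 genes, 1 member and 0 pump subunits lower, and under the authors' filter 1419 genes, 1 member and 0 pump subunits; Atp6v0e2 is not tested in either. Leaving out each library gave 1572 to 2207 genes higher and 1697 to 2565 lower, 19 to 22 members higher and 2 to 4 lower, 5 to 8 pump subunits higher and 1 to 2 lower, and 9 to 18 genes of the 4 further lists higher and 1 to 3 lower, against 24 and 3 with all libraries. Without 7-day replicate 2 those were 1572, 1697, 19, 2, 5, 1, 9 and 3. Without 3-day replicate 1, Tmem55b turned to log2 -0.0371 (up to 0.4079 without 3-day replicate 2, not called), and members lower numbered 4. The further lists had 14, 15, 15 and 12 genes higher without 3-day replicates 2 and 3 and 7-day replicates 1 and 3. The cause of these shifts was not tested. Replicate numbers are shared by both times. Across genes, deviations of same-numbered libraries from the mean of their time correlated at 0.0995, 0.0054 and 0.0047 for replicates 1, 2 and 3. The replicate 1 value was the highest between any 3-day and 7-day library. The 3-day replicates 2 and 3 correlated more with 7-day replicates 3 and 2 (0.0428 and 0.0405). Within a time each library's deviation is fixed by the others, so these correlations cannot decide whether libraries were paired. Libraries were not taken as pairs in the main fit. With a replicate block 2450 genes were higher and 2425 lower, and 25 members higher and 2 lower. For Rpl22, log2 change, not called in any alternative, ranged over single omitted libraries from -0.1437 without 3-day replicate 1 to 0.0377 without 3-day replicate 3. The depth is unknown, so the precision it gives to genes of low FPKM is not stated.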
